A study of Homo sapiens with 6 samples.

Results

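The genes described here are 9 established markers of neuroendocrine cells. They are the granins CHGA, CHGB, SCG2 and SCG3, the vesicle membrane protein SYP, the enolase ENO2, the adhesion molecule NCAM1, the transcription factor INSM1 and the neuropeptide precursor NTS. They were chosen by gene symbol, each symbol matched a single row, and they make up 9 of the 58735 genes in the deposited tables. RNAseq was carried out on C4-2B, a castration resistant line descended from the prostate cancer line LNCaP, and on RC4-2B, its subclone resistant to cabazitaxel (CBZ). RC4-2B was obtained from C4-2B by repeated rounds of 72 h of CBZ, a taxane, each with recovery, at concentrations that rose from 0.1 nM to 20 nM over 4 months. No drug is named for the cultures that gave the RNA, and both cell lines carry the same label for medium, RPMI-1640 with 10% fetal bovine serum (the methods also name charcoal-stripped serum). The labels give 3 biological replicates of each. RC4-2B is 1 resistant subclone, so a difference that came with CBZ selection and one that came with the outgrowth of this subclone cannot be told apart.

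Total counts on genes ranged from 15707134 to 18052517 per library. A count of 3 was taken as the floor of detection, which corresponded to 0.170 to 0.188 CPM (counts scaled to library size), a limit that covers counting error only. RC4-2B replicate 2 stood apart from the other libraries of its cell line. Across well-expressed genes, the SD of its log2 difference from RC4-2B replicates 1 and 3 was 0.608 and 0.532, against 0.220 between those 2 libraries and 0.136 to 0.196 within C4-2B. Its difference from RC4-2B replicate 1 tracked transcript GC content, with a Spearman rho of -0.757 (computed over genes, so not over independent replicates). With the lower-numbered library subtracted, the rho was 0.690 for RC4-2B replicates 2 and 3 and -0.401 for replicates 1 and 3. Within C4-2B it was -0.322, -0.308 and -0.058. For several values that move with this library, the value without it is given below as well.

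Neuroendocrine cells store peptide hormones and amines in dense-core vesicles and release them on demand. Granins are acidic proteins that aggregate in the secretory pathway, help to build these vesicles and are cut by prohormone convertases into shorter peptides. In prostate cancer, gain of such markers together with loss of luminal features is the hallmark of the neuroendocrine form of the disease, which can arise under treatment. In cells outside the nervous and endocrine systems, the repressor REST silences many of these genes through a DNA element called RE1.

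Of the 9 genes, 5 (CHGA, SCG3, SYP, ENO2 and NTS) have an entry in the RefSeq promoter table (GRCh38.p14), which covers 250 bases before and 50 after the start of transcription. The stretches below are shown because they set SYP and ENO2, with reads in every library, beside CHGA and NTS, at or near 0. Each lies within the 100 bases before that start. A stretch ends where the gene begins in the deposited table or in GENCODE release 44, and where it lies inside the gene by either annotation it was kept to 30 bases. Capitals mark a cyclic AMP response element (TGACGTCA), an AP-1 site (TGACTCA) or a TATA box core (TATATA), searched on both strands.
CHGA, chr14:92923096-92923125, plus strand: TGACGTCAtttccggggtcggggTATATAa
NTS, chr12:85874195-85874294, plus strand: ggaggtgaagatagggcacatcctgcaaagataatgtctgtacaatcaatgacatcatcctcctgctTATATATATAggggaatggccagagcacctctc
SYP, chrX:49200260-49200293, minus strand: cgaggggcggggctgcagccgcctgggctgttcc
ENO2, chr12:6914480-6914509, plus strand: agctccTGACTCAtcgggggctccgggtca
The cyclic AMP response element was found in 1.85% of all 35116 promoters in the table, the AP-1 site in 4.95% and the TATA box core in 3.99%. The NTS promoter held 48.3% G and C and 2 CpG pairs in its 300 bases, fewer CpG pairs than most promoters, whereas those of CHGA, SYP and ENO2 held 69.3%, 71.3% and 75% with 24, 35 and 38 CpG pairs.

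The SCG3 window held both arms of the RE1 element, TTCAGCACC and GGACAGCGC, on the strand of the gene. The site lies from base 9 to base 34 after the start, and the arms, in capitals, are separated by 8 bases.
SCG3, chr15:51681511-51681536, plus strand: TTCAGCACCcacagggcGGACAGCGC
Both arms occurred together in 7 of the 35116 promoters (0.0199%). The RE1 core with its usual short spacing (CAGCACC and GGACAG with 2 bases between them, letters it shares with the arms) was in 0.0513% of all promoters and in none of the 5 windows. These matches describe letters in a window and say nothing about binding in these cells.

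In neither cell line were the granins, NCAM1, INSM1 or NTS expressed above a few reads per library. SYP was low and ENO2 modest, and neither differed between C4-2B and RC4-2B beyond the spread between replicates. Of the 9 genes, 5 stayed at or under 3 counts in every library (CHGB, SCG2, SCG3, INSM1 and NTS), and INSM1 and NTS had 0 counts throughout. For comparison, 28.1% of the 19951 protein-coding genes stayed at or under 3 counts in every library and 17.9% had 0 counts. Only SYP and ENO2, 2 of 9, had enough counts to be tested by edgeR's quasi-likelihood test. That test called 298 of 15054 genes at an adjusted p-value under 0.05 (1.98%), with 162 higher (1.08%) and 136 lower (0.903%) in RC4-2B. Over all genes tested, 21.4% had an unadjusted p-value under 0.05, the share to set beside such counts in the lists below. The test called 0 of the 2 tested markers, and 0 had an unadjusted p-value under 0.05. DESeq2 likewise called 0, and the median log2FC (log2 fold change of RC4-2B over C4-2B) of SYP and ENO2 was -0.22, against 0.0063 over all genes tested. In RNA from a whole culture, fewer cells with a transcript and less of it per cell cannot be told apart.

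**Figure D1:**
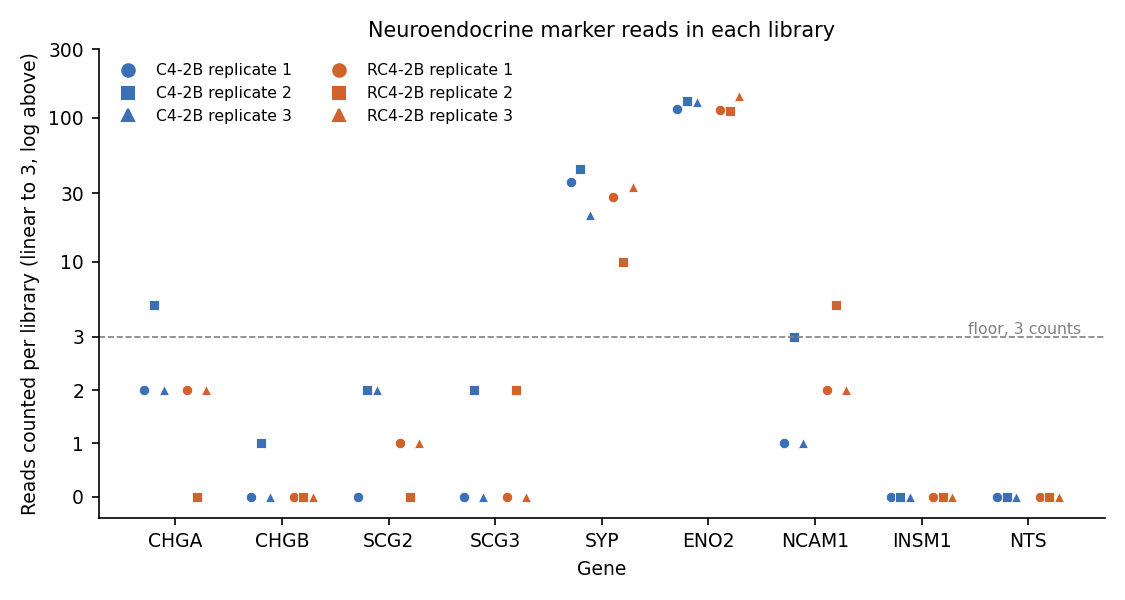
Reads counted on each of the 9 neuroendocrine marker genes (x axis) in each library (y axis, linear up to 3 counts and logarithmic above); blue symbols are the C4-2B libraries, orange the RC4-2B libraries, and the dashed line is the floor of 3 counts. ENO2 stands between 112 and 141 counts and SYP between 10 and 44, while no other marker exceeds 5 counts in any library.

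CHGA, chromogranin A, is the granin most used as a serum and tissue marker of neuroendocrine tumours. It lies on the plus strand of chromosome 14 (GRCh38, 92923080 to 92935293). Its counts were 2, 5 and 2 in C4-2B (replicates in order), against 2, 0 and 2 in RC4-2B. The groups overlapped, and C4-2B replicate 2 was the only library above the floor. Summed over the libraries, 9 reads in C4-2B and 4 in RC4-2B gave a ratio of 0.457 in RC4-2B relative to C4-2B, with an exact 95% interval of 0.103 to 1.64 that covers counting error alone. An exact permutation test on CPM gave a two-sided p of 0.5, where 0.1 is the smallest p that 3 libraries against 3 allow. A difference in CHGA was thus not detectable at this depth.

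CHGB, chromogranin B (chromosome 20, 5911430 to 5925361, plus strand), had 1 read in C4-2B replicate 2 and 0 in the other libraries. SCG2, secretogranin II (chromosome 2, 223596940 to 223602503, minus strand), had 0, 2 and 2 reads in C4-2B, against 1, 0 and 1 in RC4-2B. SCG3, secretogranin III, binds CHGA and helps to sort it to the vesicle (chromosome 15, 51681353 to 51721031, plus strand). Its counts were 0, 2 and 0 in C4-2B, against 0, 2 and 0 in RC4-2B. All 3 genes were at or under the floor in both cell lines, so no fold change is given. When edgeR was run with no filter on low counts, the adjusted p-values of these 4 granins lay between 0.636 (CHGA and CHGB) and 0.996 (SCG3). In FPKM, which divides the count by gene length and library depth, 3 reads correspond to at most 0.0541 for CHGA, 0.037 for CHGB, 0.0617 for SCG2 and 0.0506 for SCG3.

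INSM1, a zinc finger factor that drives neuroendocrine differentiation, lies on the plus strand of chromosome 20 (20368121 to 20370949), and NTS, which encodes neurotensin, on that of chromosome 12 (85874295 to 85882992). Each had 0 reads in all 6 libraries. In a single library taken alone, a count of 0 allows up to 3 reads, or up to 0.0593 FPKM for INSM1 and 0.108 FPKM for the shorter NTS gene. For the sum over the libraries of a cell line the exact 95% Poisson interval ends at 3.69 reads, a tighter limit. NCAM1, also known as CD56, is a cell adhesion molecule of neurons and neuroendocrine cells (chromosome 11, 112961247 to 113278436, plus strand). It had 1, 3 and 1 reads in C4-2B, against 2, 5 and 2 in RC4-2B. The groups overlapped, and RC4-2B replicate 2 was the only library above the floor. The summed counts of 5 and 9 gave a ratio of 1.85 with an exact 95% interval of 0.557 to 7.03, again for counting error alone (exact permutation test on CPM, two-sided p = 0.3). In GENCODE release 44, opposite-strand genes share exon bases with NCAM1, of which NCAM1-AS1 shares the most, 4.83% of the exon bases of NCAM1. Because the strand setting of the counts is not given in the sources used here, the few reads may belong to either gene.

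SYP, synaptophysin, is a membrane protein of small synaptic-like vesicles and a standard stain for neuroendocrine tumours (ENSG00000102003, chromosome X, 49187804 to 49200259, minus strand). Its counts were 36, 44 and 21 in C4-2B, against 28, 10 and 33 in RC4-2B. The groups overlapped, and RC4-2B replicate 2 was the lowest of the 6. The mean FPKM was 0.334 ± 0.114 (SD, n = 3) in C4-2B and 0.246 ± 0.126 (SD, n = 3) in RC4-2B. The log2FC was -0.46 (SE 0.47, adjusted p = 0.558 by edgeR, Benjamini-Hochberg adjustment). Its 95% interval, -1.52 to 0.61, corresponds to a level in RC4-2B between 0.348 and 1.52 times that of C4-2B. Without RC4-2B replicate 2 the log2FC was -0.074 (adjusted p = 0.914), and over all alternatives it stayed negative, with adjusted p-values from 0.426 to 0.914. The antisense gene SYP-AS1 shares 0.975% of the exon bases of SYP.

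ENO2, neuron-specific enolase, is the glycolytic enolase of neurons and neuroendocrine cells and is also made by many other cells (ENSG00000111674, chromosome 12, 6913745 to 6923698, plus strand). Its counts were 115, 130 and 128 in C4-2B, against 113, 112 and 141 in RC4-2B. The groups overlapped. The mean FPKM was 1.50 ± 0.0577 (SD, n = 3) in C4-2B and 1.54 ± 0.185 (SD, n = 3) in RC4-2B. The log2FC was 0.015 (SE 0.17, adjusted p = 0.964 by edgeR). The 95% interval of -0.38 to 0.41 leaves room for a level in RC4-2B between 0.769 and 1.33 times that of C4-2B.

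Per length, the order of the mean FPKM levels over the 6 libraries was ENO2 (1.52), SYP (0.290), CHGA (0.0365), SCG2 (0.0192), SCG3 (0.0104), NCAM1 (0.0097) and CHGB (0.0019), followed by INSM1 and NTS at 0. The libraries of ENO2 (1.40 to 1.75 FPKM) did not overlap with those of SYP (0.102 to 0.426 FPKM), nor those of SYP with those of CHGA, which reached 0.0813 FPKM. From CHGA downwards the neighbours in this order were not distinguishable, since each rests on at most 5 reads per library. Among protein-coding genes, 52.4% had a lower mean FPKM than ENO2 and 41.7% a lower one than SYP, and for CHGA the share was 31.2%.

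**Figure D2:**
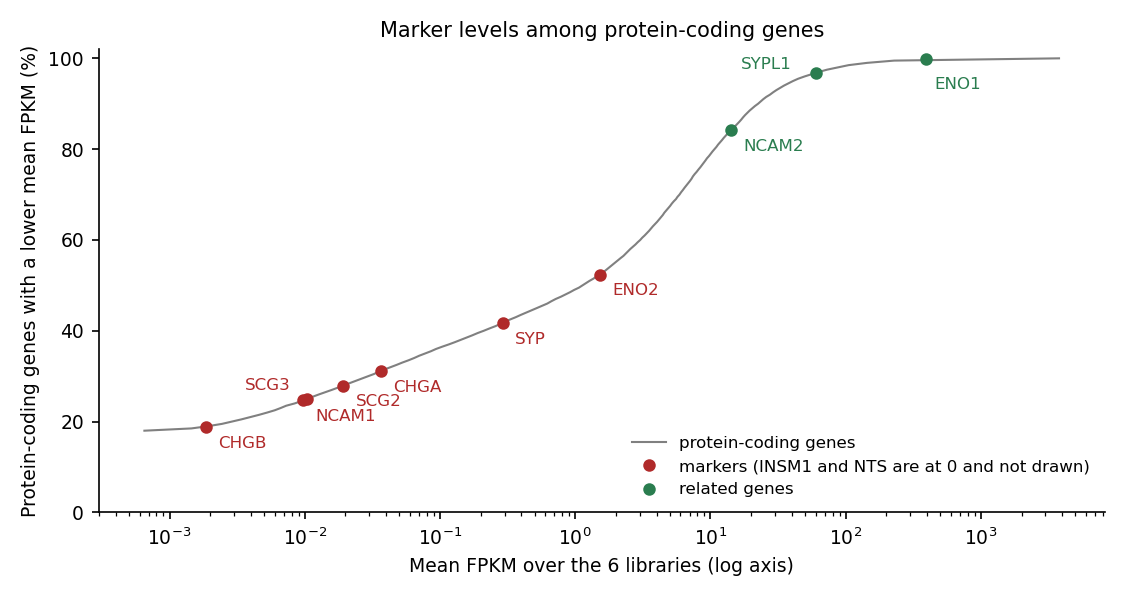
Mean FPKM over the 6 libraries (x axis, log scale) against the percentage of protein-coding genes with a lower mean FPKM (y axis); the grey line is all protein-coding genes, red points are the markers and green points are the related genes NCAM2, SYPL1 and ENO1. ENO2 sits at 52.4% and SYP at 41.7%, the other drawn markers lie at or below 31.2%, and ENO1 lies near the top at 395 FPKM.

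Some related family members of the same genes were abundant in both cell lines, and others were not. By mean FPKM over the 6 libraries, ENO3 was at 2.75, SYNGR1 at 1.67 and SYNGR3 at 1.33, against 1.52 for ENO2. L1CAM (0.113), SYPL2 (0.0043) and SYNPR (0.0021) were below SYP (0.290). ENO1, the ubiquitous enolase, stood at 397 ± 31.9 FPKM in C4-2B and 392 ± 38 FPKM in RC4-2B (SD, n = 3), which was 265 and 255 times the level of ENO2. NCAM2, the paralog of NCAM1, stood at 12.7 ± 0.797 FPKM in C4-2B and 15.7 ± 4.52 FPKM in RC4-2B, so these cells carried reads of NCAM2 and almost none of NCAM1. In RC4-2B replicate 2 NCAM2 was at 20.9 FPKM, against 12.6 and 13.6 FPKM in replicates 1 and 3. SYPL1, synaptophysin-like 1, exceeded SYP by 173 times in C4-2B and 256 times in RC4-2B by mean FPKM. The highest ratio in a single library, 685, was that of RC4-2B replicate 2. SYP was at 0.102 FPKM there, against 0.300 and 0.336 FPKM in RC4-2B replicates 1 and 3. SYNGR2, a synaptogyrin, stood at 101 ± 8.46 FPKM in C4-2B and 82.6 ± 20.7 FPKM in RC4-2B. In RC4-2B replicate 2 it was at 59.0 FPKM, against 90.8 and 97.8 FPKM in replicates 1 and 3. Of the 12 paralogs and modifiers listed, 8 were tested and 0 passed the threshold in either direction in edgeR's test, with 0 at an unadjusted p-value under 0.05 and a median log2FC of -0.15. ST8SIA4, which adds polysialic acid to NCAM1, was below the filter and was singled out after its values were seen. It had 5, 7 and 10 reads in C4-2B and 0 in each RC4-2B library, and was thus at least 2.36-fold lower, computed against the floor of 3 counts per library. With no filter on low counts its adjusted p in edgeR was 0.010, in a fit that called 2.22% of 29109 genes lower. In the exact permutation test on CPM it had a two-sided p of 0.1, the smallest possible.

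Of the 10 genes for other granins and for prohormone processing, 6 were tested, of which 0 rose and 1, FURIN, fell, with 3 at an unadjusted p-value under 0.05. FURIN, a convertase of the constitutive secretory pathway, stood at 10.6, 11.1 and 11.7 FPKM in C4-2B and 6.10, 4.57 and 6.18 FPKM in RC4-2B. All RC4-2B libraries were below all C4-2B libraries, and the log2FC was -1.01 (SE 0.15, adjusted p = 0.019 by edgeR). The adjusted p-value was 0.111, 0.103 and 0.104 with C4-2B replicate 1, 2 or 3 left out and 0.064 without RC4-2B replicate 3. Without RC4-2B replicate 2 the log2FC was -0.86 (adjusted p = 4.23e-05 by edgeR). With a correction for GC content the log2FC was -0.66 (adjusted p = 0.0057).

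The convertases specific to neuroendocrine vesicles were near 0. PCSK1 had 4 reads in C4-2B replicate 3 and 0 in the other libraries, and PCSK2 had 1 read in each of C4-2B replicates 1 and 2 and 0 elsewhere. SCG5, the chaperone of PCSK2, had between 5 and 14 reads per library and was not tested. In contrast, CPE, the carboxypeptidase that trims the cut peptides, stood at 9.75 ± 0.296 FPKM in C4-2B and 7.64 ± 0.941 FPKM in RC4-2B, with a log2FC of -0.37 that did not pass the threshold (adjusted p = 0.174, with a range over the alternatives of 0.045 to 0.467). CPD, a related carboxypeptidase of the trans-Golgi, had a log2FC of 0.75 with an adjusted p of 0.052 by edgeR. That value was 0.264, 0.219 and 0.201 with C4-2B replicate 1, 2 or 3 left out and 0.028, 0.000786 and 0.141 with RC4-2B replicate 1, 2 or 3 left out.

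VGF and PCSK1N, secreted proteins often counted with the granins, were well expressed. VGF had 533, 402 and 439 reads in C4-2B, against 316, 71 and 386 in RC4-2B, all 3 below C4-2B, but its log2FC of -0.78 did not pass the threshold (adjusted p = 0.364). PCSK1N, which encodes the convertase inhibitor proSAAS, had 404, 374 and 330 reads in C4-2B, against 665, 164 and 886 in RC4-2B, a log2FC of 0.68 (adjusted p = 0.417). In both genes RC4-2B replicate 2 was the lowest library, and their transcripts hold 70.5% and 74.2% G and C. Without that library the log2FC of VGF was -0.32 (adjusted p = 0.153), while PCSK1N had a log2FC of 1.13 (adjusted p = 4.4e-05 by edgeR), and with the GC correction over all 6 libraries 1.34 (adjusted p = 0.000636). The fit without RC4-2B replicate 2 called 12.5% of all genes, and that with the GC correction called 654 genes higher and 491 lower. Over all alternatives the adjusted p-value of PCSK1N ran from 4.4e-05 to 0.791. The highest value was that without RC4-2B replicate 3, where its log2FC was 0.25.

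**Figure D3:**
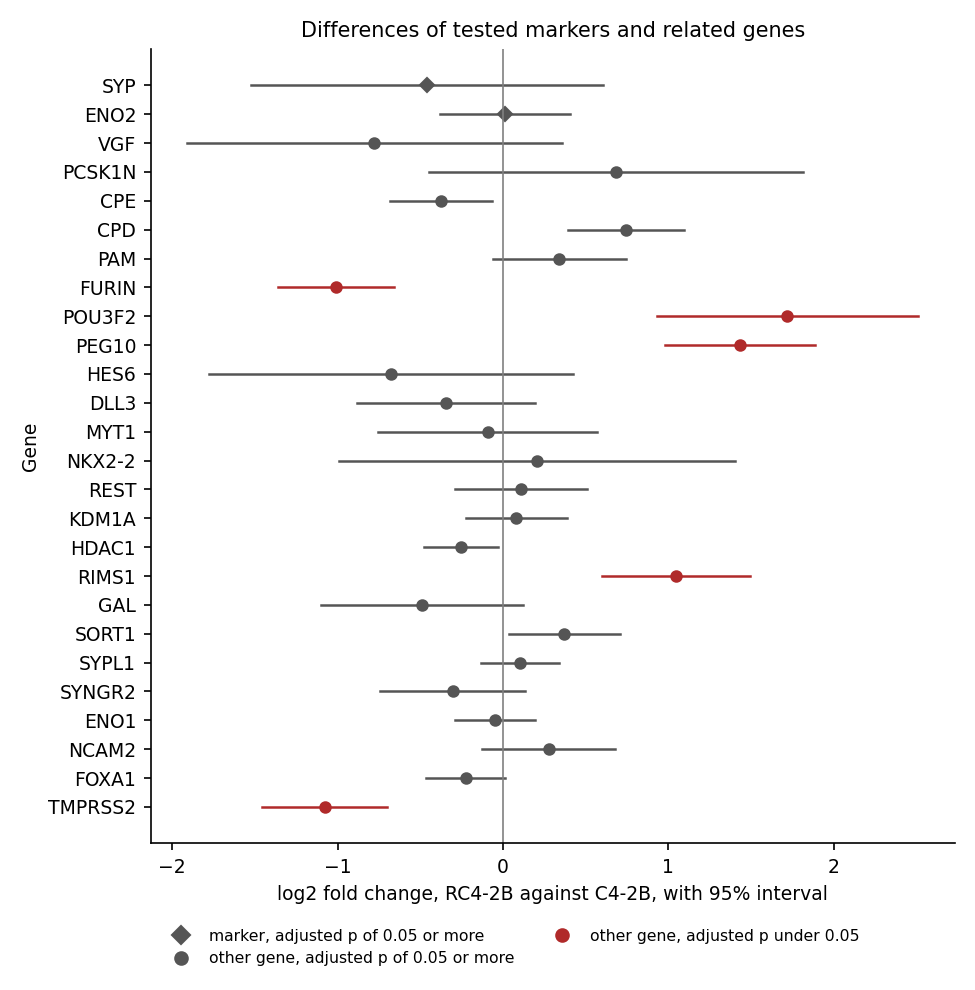
Log2FC of RC4-2B against C4-2B (x axis) with its 95% interval from edgeR's quasi-likelihood fit on 3 libraries each, for the 2 tested markers (diamonds) and for selected tested genes of the related lists (circles); red marks an adjusted p-value under 0.05. The intervals of SYP and ENO2 span 0, and SYT4 and KLK3, at -4.98 and -4.33, are not drawn.

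Of the 22 transcription and lineage factors of neuroendocrine cells, 10 stayed at or under 3 counts in every library. NEUROD1, a proneural factor that defines a subtype of small cell cancers, had 0 reads throughout, as did FOXA2 and MYCN. Of the 9 that were tested, 2 rose and 0 fell in edgeR's test, and these were the 2 at an unadjusted p-value under 0.05. POU3F2, the neural factor BRN2, rose from 20, 16 and 9 reads in C4-2B to 41, 62 and 43 in RC4-2B, with no overlap between the groups. Its mean FPKM was 0.160 ± 0.0623 in C4-2B and 0.539 ± 0.121 in RC4-2B (SD, n = 3), a log2FC of 1.72 (SE 0.35, adjusted p = 0.048). PEG10, a retrotransposon-derived gene linked to neuroendocrine prostate cancer, rose from 181, 252 and 276 reads to 568, 784 and 511. Its mean FPKM was 1.82 ± 0.344 in C4-2B and 5.02 ± 1.12 in RC4-2B (SD, n = 3), a log2FC of 1.43 (SE 0.20, adjusted p = 0.014).

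Both calls were lost with some libraries left out. The adjusted p-value of PEG10 was 0.093, 0.076 and 0.062 with C4-2B replicate 1, 2 or 3 left out. That of POU3F2 was 0.142, 0.204 and 0.181 with C4-2B replicate 1, 2 or 3 left out, and 0.053 and 0.112 without RC4-2B replicate 1 or 3. It was 0.074 with the replicate number as a block. Over all genes, those called higher numbered 13, 19 and 20 with C4-2B replicate 1, 2 or 3 left out, against 162. Without RC4-2B replicate 2 both calls were kept in edgeR, with a log2FC of 1.27 for PEG10 (adjusted p = 5.5e-05) and 1.54 for POU3F2 (adjusted p = 0.012). DESeq2 (adjusted p = 3.2e-08 and 0.0045) and edgeR with the GC correction (0.0010 and 0.017) kept both as well. PEG10 shares 3.27% of its exon bases with SGCE on the opposite strand.

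The most abundant factors of this list were HES6, a factor of the HES family expressed in neural precursors, and DLL3, an inhibitory Notch ligand that is a drug target in small cell cancers. HES6 stood at 58.4 ± 4.25 FPKM in C4-2B and 36.8 ± 22.9 FPKM in RC4-2B (SD, n = 3), a log2FC of -0.68 (adjusted p = 0.410 by edgeR). DLL3 stood at 8.51 ± 0.212 and 6.78 ± 2.09 FPKM, a log2FC of -0.35 (adjusted p = 0.392) that was 0.087 with the GC correction. RC4-2B replicate 2 was the lowest library for both, with 396 reads on HES6 against at least 1818 in every other library. Without it the log2FC was -0.23 for HES6 and -0.097 for DLL3.

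REST had 928, 1084 and 1073 reads in C4-2B, against 791, 1408 and 1054 in RC4-2B. The groups overlapped, and its log2FC was 0.11 (SE 0.17, adjusted p = 0.721). It was -0.089 without RC4-2B replicate 2 and -0.096 with the GC correction. All 9 genes of the REST repressor complex were tested and 0 passed the threshold in edgeR's test, with 3 at an unadjusted p-value under 0.05. The most abundant were HDAC1, a histone deacetylase, at 74.7 ± 1.51 and 63.8 ± 3.5 FPKM, and KDM1A, a histone demethylase, at 24.7 ± 0.834 and 26.6 ± 5.2 FPKM in C4-2B and RC4-2B (SD, n = 3). Their log2FC values were -0.25 (adjusted p = 0.199) and 0.082 (adjusted p = 0.725). KDM1A was at -0.066 without RC4-2B replicate 2. CTDSP1 was lower in all RC4-2B libraries than in any C4-2B library, with a log2FC of -0.55 (adjusted p = 0.204 by edgeR). Among the alternatives it was called only in edgeR with no filter (adjusted p = 0.043) and without RC4-2B replicate 2. Without that library its log2FC was -0.31 (adjusted p = 0.022), in a fit that called 12.5% of all genes.

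Of the 26 genes of dense-core vesicles and regulated exocytosis, 17 were tested, 1 rose and 1 fell, with 5 at an unadjusted p-value under 0.05 and a median log2FC of -0.15. SYT4, a synaptotagmin of secretory vesicles on chromosome 18, fell from 62.6, 62.6 and 61.1 FPKM in C4-2B to 1.40, 3.07 and 1.58 FPKM in RC4-2B, a log2FC of -4.98 (adjusted p = 0.000154). It kept its call under every alternative. RIMS1, a scaffold of the release site, rose from 0.776, 1.04 and 1.23 FPKM to 1.85, 2.56 and 2.01 FPKM, a log2FC of 1.05 (SE 0.20, adjusted p = 0.036 by edgeR). The adjusted p-value of RIMS1 was 0.174, 0.177 and 0.097 with C4-2B replicate 1, 2 or 3 left out, 0.109 without RC4-2B replicate 3 and 0.050188 with the replicate block. Without RC4-2B replicate 2 its log2FC was 0.92 (adjusted p = 0.0012 by edgeR). RAB3D, a GTPase of secretory granules, was the next most abundant gene of the list, at 30.6 ± 2.03 and 30.6 ± 1.54 FPKM with a log2FC of -0.024. SNAP25, the neuronal fusion protein, had 0 reads throughout, SYN1 had 2 reads in all, and PTPRN, a membrane protein of dense-core vesicles, had 2.

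**Figure D4:**
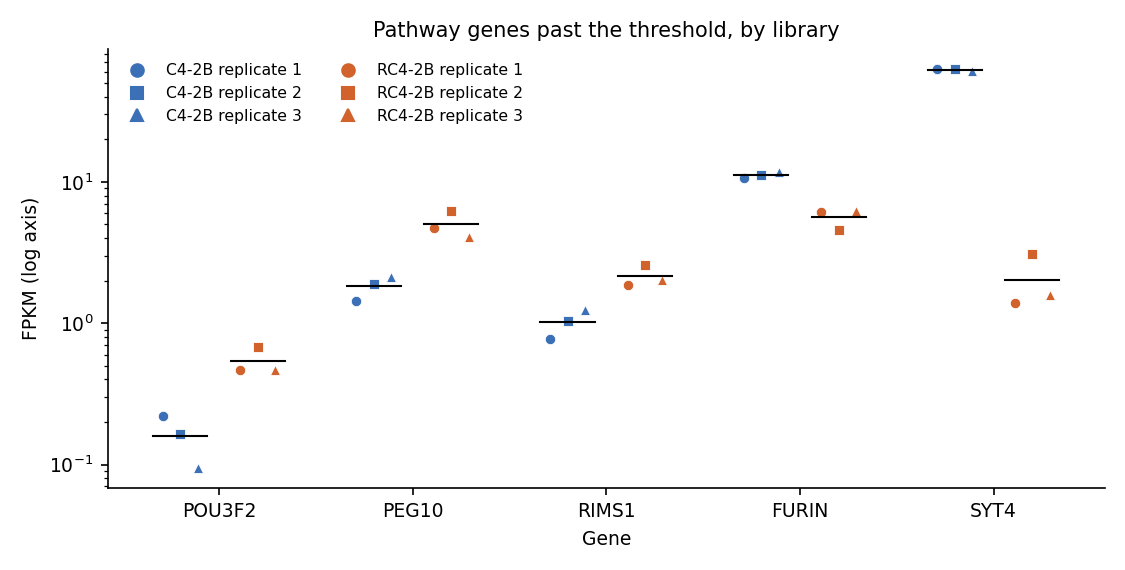
Deposited FPKM (y axis, log scale) in each library for the 5 genes of the related lists with an adjusted p-value under 0.05; blue symbols are C4-2B, orange are RC4-2B, and black lines are the means of 3 libraries. POU3F2, PEG10 and RIMS1 are higher in all RC4-2B libraries than in any C4-2B library, and FURIN and SYT4 are lower.

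Of the 19 neuropeptides and receptors, 9 stayed at or under 3 counts in every library, among them GRP, VIP, SST and NPY with 0 reads. Of the 7 tested, 0 passed the threshold in edgeR's test, with 1 at an unadjusted p-value under 0.05. GAL, the precursor of the peptide galanin, was the most abundant, with 1903, 1809 and 1704 reads in C4-2B, against 1475, 729 and 1521 in RC4-2B. The groups did not overlap, but the log2FC of -0.49 did not pass the threshold (adjusted p = 0.308) and was -0.20 without RC4-2B replicate 2. SORT1, a sorting receptor that binds neurotensin, stood at 2.68 ± 0.144 and 3.54 ± 0.677 FPKM with a log2FC of 0.37 (adjusted p = 0.202). The neurotensin receptors NTSR1 and NTSR2 had at most 20 reads in any library.

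Notch signalling opposes neuroendocrine fate in several tissues. All 8 Notch genes listed were tested and 0 passed the threshold in edgeR's test, with 1, NOTCH2, at an unadjusted p-value under 0.05. NOTCH2 had a log2FC of 0.65 (adjusted p = 0.061 by edgeR, and 0.0061 by DESeq2). NOTCH3 had a log2FC of 0.21 (adjusted p = 0.557 by edgeR), which was 0.45 (adjusted p = 0.0038) without RC4-2B replicate 2 and 0.58 (adjusted p = 0.0072) with the GC correction. Over all alternatives the adjusted p-values ran from 0.0034 to 0.262 for NOTCH2, from 0.0038 to 0.932 for NOTCH3 and from 0.034 to 0.543 for JAG2. JAG2, a ligand, stood at 22.6 ± 1.51 and 15.2 ± 5.82 FPKM with a log2FC of -0.59 (adjusted p = 0.252), and of -0.30 (adjusted p = 0.034) without RC4-2B replicate 2. NOTCH1 stood at 8.51 ± 1.15 and 8.62 ± 1.68 FPKM with a log2FC of -0.0012. Its direction turned with several settings and was 0.40 with the GC correction (adjusted p = 0.097). Over the 7 lists from granin processing to paralogs, 64 of 106 genes were tested and 5 were called (7.81%, against 1.98% of all genes), 3 higher and 2 lower. The lists were drawn up with earlier results of these data known, SYT4 among them, so nothing is read from that share. Without RC4-2B replicate 2 the numbers were 8 higher and 4 lower, in a fit that called 12.5% of all genes.

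The luminal identity that the labels imply was present in both cell lines. All 12 luminal and androgen-responsive genes were tested, 0 rose and 2 fell, with 4 at an unadjusted p-value under 0.05 and a median log2FC of -0.049. FOLH1, prostate-specific membrane antigen, stood at 166 ± 1.09 FPKM in C4-2B and 177 ± 42.9 FPKM in RC4-2B (SD, n = 3), a log2FC of 0.062 (adjusted p = 0.817 by edgeR). It was -0.12 without RC4-2B replicate 2. KLK3, which encodes prostate-specific antigen, fell by 4.33 on the log2 scale, from 188 ± 9.85 to 9.47 ± 2.75 FPKM (adjusted p = 0.000154 by edgeR). KLK2, the kallikrein gene next to KLK3, stood at 33.3 ± 0.981 FPKM in C4-2B and 18.9 ± 6.74 FPKM in RC4-2B, with no overlap between the groups, and its log2FC of -0.84 did not pass the threshold (adjusted p = 0.131 by edgeR). That p-value was 0.022 by DESeq2 and 0.000446 without RC4-2B replicate 2, where the log2FC was -0.56, and between 0.307 and 0.411 with a C4-2B library left out. TMPRSS2, an androgen-responsive protease, fell by 1.08, from 27.0 ± 1.85 to 13.0 ± 2.51 FPKM (adjusted p = 0.019 by edgeR). Its adjusted p-value was 0.119, 0.082 and 0.104 with C4-2B replicate 1, 2 or 3 left out and 0.054 without RC4-2B replicate 3, and MX1 on the opposite strand shares 8.53% of its exon bases.

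Markers of cell types that should be absent from a prostate line were absent or low, except COL1A1. By mean FPKM over the 6 libraries, COL1A1 (2.39) was above ENO2 (1.52), and VWF (0.520) and PDGFRB (0.334) were above SYP (0.290). All 5 leukocyte markers stayed at or under 3 counts in every library, with a summed level of 0.0566 to 0.0725 FPKM in C4-2B and 0 to 0.075 FPKM in RC4-2B. Of 4 endothelial markers, PECAM1 had 0 reads and VWF alone was above the floor, with a summed level of 0.641 to 0.707 FPKM in C4-2B and 0.325 to 0.436 FPKM in RC4-2B. Of 6 fibroblast markers, COL1A2, DCN and LUM had 0 reads, and the summed level, mainly COL1A1, was 2.34 to 2.66 FPKM and 2.73 to 3.93 FPKM. None of the tested markers of these 3 lists passed the threshold in edgeR's test (0 of 4, with 2 at an unadjusted p-value under 0.05). VWF was at a log2FC of -0.84 (adjusted p = 0.065), COL1A1 at 0.30 (adjusted p = 0.361), PDGFRB at 0.31 (adjusted p = 0.445) and COL3A1 at 1.69 (adjusted p = 0.051). Without RC4-2B replicate 2 the adjusted p-values of VWF, COL1A1 and COL3A1 were 0.013, 0.033 and 0.016, and over all alternatives they reached 0.285, 0.705 and 0.260. Their part in the differences above was not tested.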

How the data were processed

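Per the methods and the submitters' processing notes, the authors aligned the reads with STAR (GRCh38). They deposited raw counts per gene and FPKM for 6 libraries. Each FPKM is the count over gene length and over a library constant between 17878222 and 19817304. The counting program, strand setting and annotation are not given in the sources used here. Columns were matched to samples through the labels.

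In R 4.3.3, counts were fitted with edgeR 4.0.16 (TMM scaling, filterByExpr with a minimum count of 10, glmQLFit and glmQLFTest). Cell line was the only term, and p-values were adjusted by Benjamini-Hochberg over 15054 genes at 0.05. The SE is |log2FC| over the square root of F. Intervals on ratios of summed reads are exact binomial ones at 95%, and the limit on a sum of 0 reads is from an exact Poisson interval. GC content is that of the longest transcript in GENCODE release 44.

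The 9 genes and the lists were chosen with earlier results of these data known. Genes were named by a rule: the 9 markers, list genes past the threshold, the 2 tested genes of each list with the highest mean FPKM, and called genes most like a marker, of which there were 0. Other genes named were chosen after their values were seen. A few genes of the lists are not reported here.

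Alternatives were DESeq2 1.42.0 (the tool the methods name), RLE and upper-quartile scaling, no filter, a mean of at least 10 counts, a replicate block, a GC correction (lowess span 0.2), both together, each library left out, limma 3.58.1 on log2(FPKM + 1) and log2(FPKM + 0.1), and a prior count of 2. Replicates are those the labels name. All pairs within a cell line differed by more than sampling noise (chi-square per gene 3.38 to 65.4).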

Additional observations from a re-analysis of the deposited data

How the results depend on the processing

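SYP and ENO2 passed the threshold under none of the alternatives, and the number of markers called stayed at 0 in each direction. SYP was not tested by limma on FPKM with its filter. ENO2, close to 0, was between -0.095 and 0.099 with a library left out. Scaled as TMM CPM per kilobase, its level in C4-2B was 1.67 in place of its FPKM. The number of genes called moved most. Higher and lower genes numbered 500 and 402 with DESeq2, 604 and 646 with no filter, 55 and 74 with the replicate block, 654 and 491 with the GC correction, and 632 and 553 with both. They numbered 46 and 58 with limma on log2(FPKM + 1), 39 and 47 with a pseudocount of 0.1, and 13 and 23 with limma and no filter. With a library left out they ranged from 13 to 1000 higher and from 31 to 925 lower, the top values without RC4-2B replicate 2. The cause was not tested. In the 7 related lists, the higher genes numbered 5 with DESeq2 and with no filter, 1 with the replicate block, 8 with the GC correction, 9 with both, and 1, 1 and 0 in the limma fits. With a library left out they ranged from 0 to 8. The lower genes numbered 5 with no filter, 1 with limma and no filter, and 1 to 4 with a library left out.

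Values near 0, and that of DLL3 (a log2FC of -0.35 in edgeR's test), changed direction. None of these passed the threshold except NOTCH1 with the block and the GC correction. With the GC correction, and with the block as well, they were 0.037 and 0.037 (RAB3D), 0.087 and 0.088 (DLL3), -0.027 and -0.032 (KDM1A), 0.40 and 0.41 (NOTCH1, adjusted p = 0.039 with both), 0.021 and 0.015 (ENO1), -0.11 and -0.11 (FOLH1), and -0.096 and -0.10 (REST). With limma, RAB3D was at 0.0012 and NOTCH1 at 0.0083, 0.0081 and 0.0083, and NOTCH1 was at 0.0073 with upper-quartile scaling. With a library left out the ranges were -0.078 to 0.013 (RAB3D), -0.066 to 0.17 (KDM1A), -0.11 to 0.17 (NOTCH1), -0.10 to 0.022 (ENO1), -0.12 to 0.19 (FOLH1), and -0.089 to 0.27 (REST).

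Whether the replicate numbers pair the libraries cannot be told from these data. Same-numbered libraries deviated from their group means with correlations of 0.18, 0.11 and -0.027, and not every library correlated best with its own number. The replicate block gave SYP -0.50 (adjusted p = 0.577).

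With limma and no filter, the calls of FURIN, PEG10, POU3F2, RIMS1 and TMPRSS2 were lost (adjusted p = 0.096, 0.121, 0.180, 0.208 and 0.107), and that of RIMS1 also in the filtered limma fits (0.103 and 0.117).

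The depth sets the limit for 7 of the 9 markers, whose levels lie at or near 3 counts per library.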

Other observations

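A few lineage genes below the filter were picked out after their values were seen. ISL1, a LIM homeobox factor of endocrine and neural cells, had 8, 7 and 2 reads in C4-2B, against 9, 15 and 16 in RC4-2B, so the groups did not overlap. With no filter its adjusted p in edgeR was 0.248, and the exact permutation test on CPM gave a two-sided p of 0.1, the smallest possible. NKX2-1, a lung and thyroid factor that is also found in small cell cancers, had 0, 1 and 2 reads in C4-2B, against 2, 0 and 9 in RC4-2B. PROX1, a homeobox factor, had at most 3 reads in any library except RC4-2B replicate 2, with 9. PTHLH, which encodes a parathyroid hormone-like peptide, had 0, 11 and 2 reads in C4-2B, against 0, 10 and 2 in RC4-2B.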
